A study of Mus musculus with 9 samples.

Results

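Toll-like receptors and the IL-1 receptor are the cell surface and endosomal receptors that set off the innate inflammatory response, and 10 genes of their pathway were followed in MyC-CaP cells treated with ASPN. They were the receptors Tlr2, Tlr3, Tlr4 and Il1r1, the TLR4 co-receptors Cd14 and Ly96, the adaptor Myd88 and the kinases Irak1, Irak2 and Irak3. They were chosen by gene name for their place in the pathway, and all 10 were found among the 15384 genes of the count table. MyC-CaP cells come from a mouse model of prostate cancer, and ASPN (asporin) is a small leucine-rich protein of the extracellular matrix that tumor fibroblasts secrete. RNA-Seq counts were available for 9 libraries: 3 at 0 hours, 3 after 12 hours and 3 after 24 hours of 100 ng/mL recombinant mouse ASPN. All cells had first been kept in medium without serum and calcium. By their labels the 0 hour libraries are ASPN-treated as well, and they served as time 0. Libraries without ASPN at 12 or 24 hours were not analysed here, so the effects of ASPN and of the hours in culture cannot be told apart in any comparison. The labels call the 3 libraries of a time biological replicates, of cells plated in triplicate wells of 1 line, so p-values measure the spread between such wells.

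TLR4 recognizes bacterial endotoxin, which CD14 hands over to the complex of TLR4 with MD-2, the product of Ly96. TLR2 recognizes bacterial lipoproteins, TLR3 recognizes double-stranded RNA, and matrix molecules such as biglycan and decorin, relatives of ASPN, are known to signal through TLR2 and TLR4. TLR2, TLR4 and the IL-1 receptor pass the signal through MYD88 to the IRAK kinases and on to NF-κB, whereas TLR3 uses TRIF, the product of Ticam1.

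Tlr4, Cd14 and Ly96 of the endotoxin receptor were counted in every library at time 0. Of these, Cd14 and Tlr4 moved in different directions over the 24 hours, whereas Ly96 at time 0 overlapped with both later times. Cd14 was 2.27-fold higher at 12 hours and 2.32-fold higher at 24 hours than at time 0. Tlr4 was level at 12 hours and fell to less than 0.5 of its level by 24 hours. Tlr2 was almost absent at time 0, was counted in each library at 12 hours and was near absent again at 24 hours. Per length of transcript, Tlr3 and Irak1 were the best expressed receptor and kinase of the 10 at time 0, and Irak3 had 1 count in all 9 libraries together.

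Library totals ran from 41881191 to 52993821 counts, and 3 counts of a gene, taken here as the floor of detection, equal 0.0566 to 0.0716 CPM (counts scaled to the size of the library). Other CPM values were scaled further by TMM factors, which were lower at 24 hours (0.899 to 0.914) than at time 0 and 12 hours (1.04 to 1.07). Total-count scaling in place of TMM moved the median log2 change of all genes at 24 hours against time 0 from -0.02 to -0.24. A gene was called, and is said to have risen or fallen, where edgeR's quasi-likelihood test gave a p of at most 0.05 after Benjamini-Hochberg adjustment over all tested genes and the change was at least 1.5-fold. The labels describe the cells as epithelial-like prostate cancer cells. The luminal keratin Krt8 had 1162 to 2038 counts, whereas the epithelial adhesion genes Epcam and Cdh1 were at 0 to 10 counts in every library and Krt18 at 2 to 22. Of 8 leukocyte and macrophage markers 5 were in the table, and their summed level ranged over 0.353 to 0.901 CPM in the time 0 libraries, 0.416 to 0.709 in those of 12 hours and 0.611 to 0.766 in those of 24 hours. Cd68, a lysosomal gene that macrophages express strongly, made up most of it with 12 to 37 counts per library, and Itgam, Csf1r, Lyz2 and Fcer1g were at 0 to 5. Of 5 fibroblast markers 3 were in the table, with a summed level of 13.0 to 14.1, 12.2 to 12.5 and 9.09 to 10.3 CPM at the 3 times, nearly all of it Pdgfra, and 2 endothelial markers summed to at most 0.125 CPM. In bulk RNA, fewer cells with a transcript and less of it per cell cannot be told apart.

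The promoters of Tlr2, Tlr3, Myd88 and Irak2 are shown because these genes had an adjusted p of 0.05 or less at 12 hours with a higher level, and because their promoters differ in the letters that known inflammatory factors bind. Cd14 met the same rule with the lowest adjusted p of the 10 genes, but sequence of its chromosome, 18, was not used here. The adjusted p of Tlr2 carries no weight, as it passed the filter on low counts only through the 12-hour libraries, and it is shown as a description. The sequences are RefSeq promoters of mouse build GRCm38.p6, 250 bases before to 50 bases after the start site, written 5′ to 3′ on the strand of the gene. Tlr2 lies at chr3:83841559-83841858 (minus strand), Tlr3 at chr8:45410331-45410630 (minus strand), Myd88 at chr9:119339969-119340268 (minus strand) and Irak2 at chr6:113638217-113638516 (plus strand). Capitals mark matches to the κB consensus, to the core of the interferon response element (GAAA, any 2 bases, GAAA) or to the GAS motif TTCNNNGAA, searched on both strands.
Tlr2: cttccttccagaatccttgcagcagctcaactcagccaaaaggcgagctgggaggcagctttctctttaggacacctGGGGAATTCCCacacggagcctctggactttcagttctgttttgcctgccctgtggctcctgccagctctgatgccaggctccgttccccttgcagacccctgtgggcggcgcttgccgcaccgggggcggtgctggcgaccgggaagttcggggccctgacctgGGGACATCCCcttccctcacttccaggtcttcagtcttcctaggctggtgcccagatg
Tlr3: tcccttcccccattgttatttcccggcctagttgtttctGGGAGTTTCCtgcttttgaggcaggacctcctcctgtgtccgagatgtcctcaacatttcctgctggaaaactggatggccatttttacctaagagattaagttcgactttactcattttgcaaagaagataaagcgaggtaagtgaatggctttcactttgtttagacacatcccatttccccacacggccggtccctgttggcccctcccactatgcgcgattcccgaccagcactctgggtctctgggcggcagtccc
Myd88: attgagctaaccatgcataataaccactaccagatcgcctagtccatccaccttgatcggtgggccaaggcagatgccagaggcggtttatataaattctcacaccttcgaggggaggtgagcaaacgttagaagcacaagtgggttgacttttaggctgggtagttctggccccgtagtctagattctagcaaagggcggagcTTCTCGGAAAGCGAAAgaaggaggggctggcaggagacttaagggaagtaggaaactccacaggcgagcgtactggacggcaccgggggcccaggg
Irak2: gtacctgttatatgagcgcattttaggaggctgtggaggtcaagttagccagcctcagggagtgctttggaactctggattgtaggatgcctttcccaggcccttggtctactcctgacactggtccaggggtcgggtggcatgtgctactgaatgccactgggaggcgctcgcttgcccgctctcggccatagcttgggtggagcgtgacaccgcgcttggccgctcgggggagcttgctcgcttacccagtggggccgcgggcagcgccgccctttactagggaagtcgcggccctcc
The Tlr2 promoter held 3 κB matches, of which the pair at -173 to -164 and -172 to -163 overlap and the last, at -8 to 2, spans the start site. The Tlr3 promoter held 1 κB match, at -211 to -202. The Myd88 promoter held an interferon response core at -40 to -31 and a GAS motif at -46 to -38, which overlap, and no κB match. Irak2 had no match to any of these or to the AP-1 site TGANTCA. Among the other genes, Irak1, whose RNA was not called in any comparison, held 1 κB match at -18 to -9, the second start of Il1r1 held 1, and both starts of Irak3 held none of the 4 motifs. Of 32851 promoters of this length, 8.46% held a κB match, 3.44% the interferon response core, 8.3% the GAS motif and 7.81% the AP-1 site. A match is a run of letters and not a measured site. The promoters of Tlr4 and Ly96 were not used here.

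**Figure D1:**
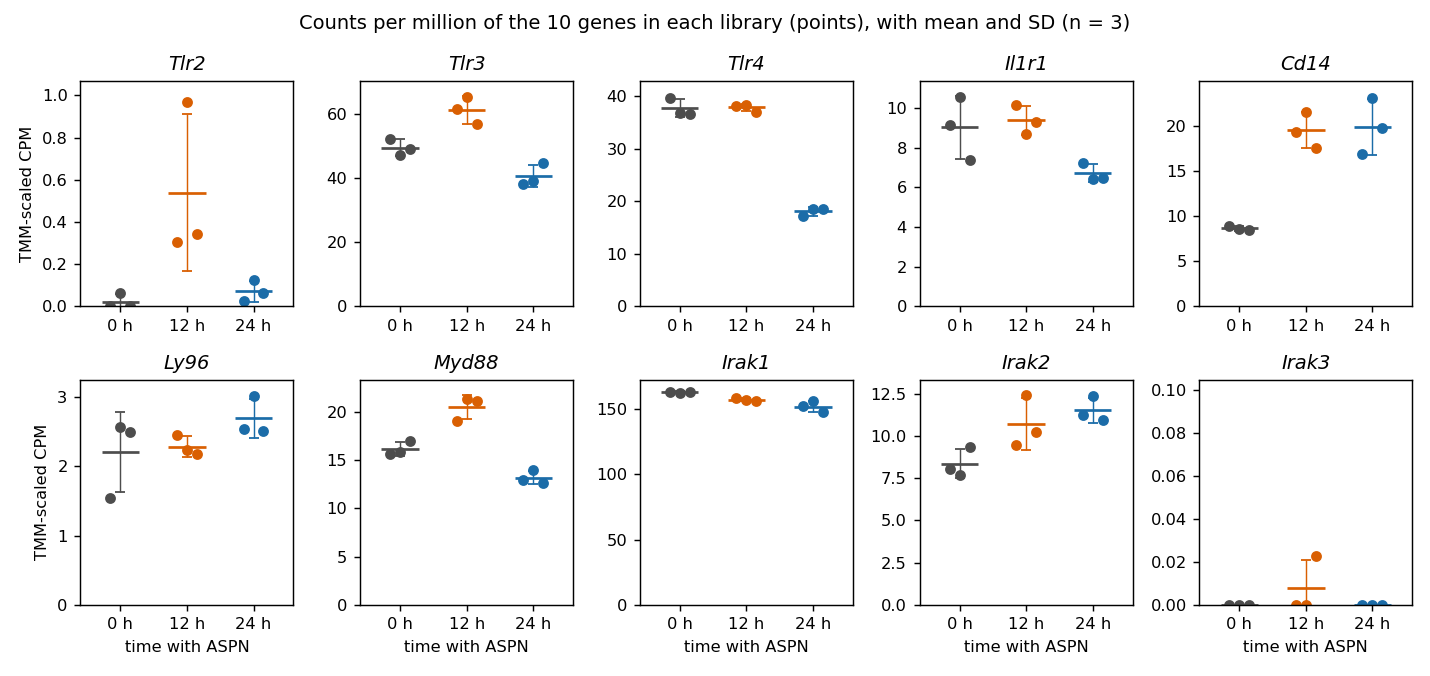
TMM-scaled CPM of the 10 genes (y axes, linear and starting at 0, with a scale of their own for each gene) at 0, 12 and 24 hours with ASPN (x axes). Points are the 3 libraries of a time, long bars the mean and whiskers the SD. Cd14 is higher at both later times, Tlr4 is lower at 24 hours only, and the 12-hour mean of Tlr2 is drawn up by 1 library at 0.969 CPM.

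To compare the genes with each other, CPM was divided by the length of each gene's merged exons, which is a level per kilobase (kb) and depends on the transcripts that the cells use. At time 0, Irak1 led with 34.5 to 34.7 CPM per kb, above 91.8% of the genes. Tlr3 followed at 9.06 to 10.1, Tlr4 at 6.59 to 7.15, Myd88 at 6.07 to 6.61 and Cd14 at 4.87 to 5.16 CPM per kb. Below them came Ly96 (1.51 to 2.52), Irak2 (1.75 to 2.11) and Il1r1 (1.16 to 1.66). Of these neighbors, Tlr4 and Myd88 overlapped in their libraries, and Ly96 overlapped with both Irak2 and Il1r1. Tlr2 was at 0 to 0.0213 CPM per kb, and Irak3 had no count.

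By 12 hours Cd14 (10.2 to 12.5 CPM per kb) had reached the range of Tlr3 (10.9 to 12.6). Myd88 at 7.39 to 8.29 then lay above Tlr4 at 6.67 to 6.89. By 24 hours Cd14 (9.76 to 13.3) was above Tlr3 (7.31 to 8.56) in every library, followed by Myd88 (4.91 to 5.40) and Tlr4 (3.08 to 3.34). The order thus changed only among Cd14, Tlr3, Myd88 and Tlr4 beyond the spread of the libraries. Irak1 stayed at the top (31.4 to 33.6 at the later times), while Ly96, Irak2 and Il1r1 stayed between 1.01 and 2.96 CPM per kb. Tlr2, at 0.102 to 0.321 at 12 hours, stood above 29.8% of the genes at its highest mean.

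**Figure D2:**
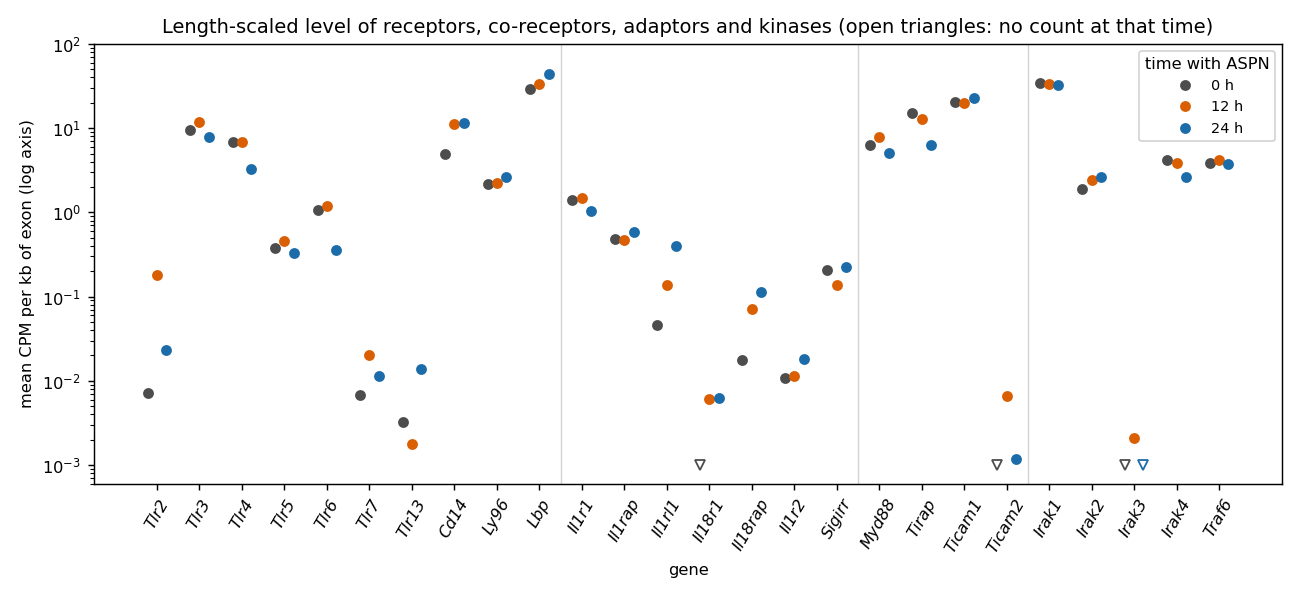
Mean CPM per kb of exon (y axis, log scale) of receptors and co-receptors, IL-1 family receptors, adaptors and kinases (x axis, the groups split by vertical lines) at 0, 12 and 24 hours. Each point is a mean of 3 libraries, and open triangles mark times with no count. Lbp and Irak1 lie near the top, and Tlr7, Tlr13, Il18r1, Ticam2 and Irak3 lie near or at 0.

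At 12 hours against time 0, 2 of the 10 genes rose, Tlr2 and Cd14, and none fell, where 1.6% of all 11410 tested genes were called, 1.5% higher and 0.0964% lower. Tlr2 entered the test only through its 12-hour libraries, so its place in this count carries no weight. At 24 hours against time 0, Cd14 was the only gene of the 10 that rose and Tlr4 the only one that fell, with 28.8% of 11444 tested genes called, 12% higher and 16.8% lower. Tlr2 had too few counts to be tested there. Between 12 and 24 hours Tlr2, Tlr4 and Myd88 fell and none rose, with 25.7% of 11394 tested genes called, 10.4% higher and 15.3% lower. With total-count scaling the calls over all genes were 698 higher and 3008 lower at 24 hours against time 0, in place of 1374 and 1924, and 484 higher and 2830 lower between 12 and 24 hours, in place of 1184 and 1740. Tlr2 entered the test between 12 and 24 hours too only through its 12-hour libraries, and without it the count there is 2 of 8 tested genes. At 24 hours against time 0 the share of the tested genes of the 10 that were called (25.0%) was close to that of all genes. Irak3 was not tested in any comparison. By the adjusted p alone, 5 of the 10 genes passed at 12 hours (10.3% of all tested genes), 7 at 24 hours (70.9%) and 5 between 12 and 24 hours (71.3%), of which Tlr2 was 1 in the first and the last, which leaves 4 of 8 in each without it. The libraries did not overlap for 6, 7 and 7 genes of the 10 in the 3 comparisons, and for 27%, 73.9% and 73.9% of all tested genes. Without Tlr2 these are 5, 7 and 6 genes. With Tlr2 counted in the first and last comparison, the median log2 change over the tested genes of the 10 was 0.31 at 12 hours and -0.19 at 24 hours against time 0, and -0.47 between 12 and 24 hours, against 0.00, -0.02 and 0.00 over all tested genes. The comparisons at 12 and at 24 hours share their time 0 libraries.

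**Figure D3:**
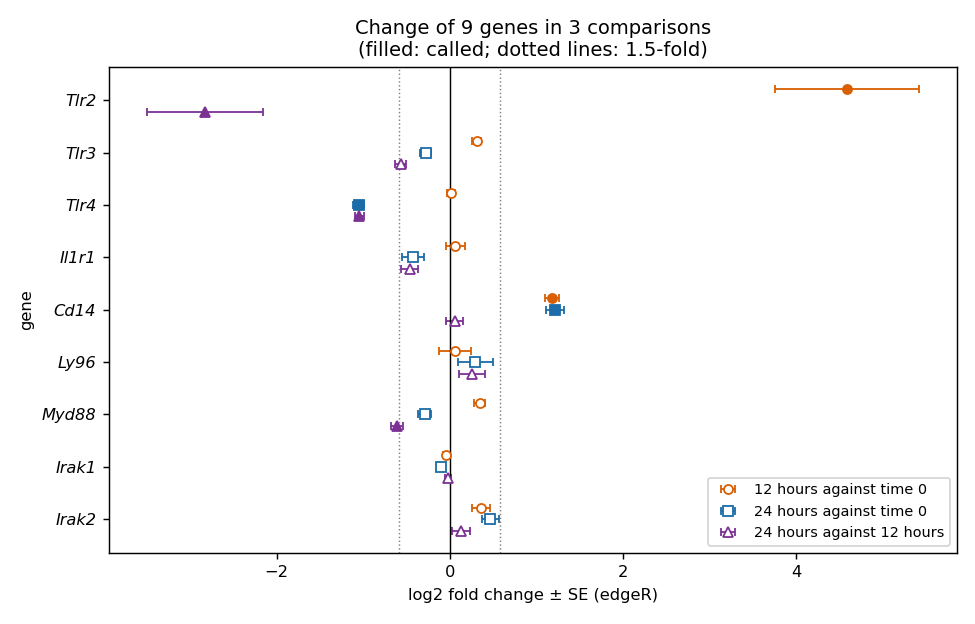
Log2 fold change (x axis) of the 9 genes tested at least once (y axis) in 3 comparisons: 12 hours against time 0 (circles), 24 hours against time 0 (squares) and 24 against 12 hours (triangles). Whiskers are the SE from edgeR, filled symbols are called genes and dotted lines mark 1.5-fold. The values of Tlr2 have the longest whiskers, and Cd14 is the only gene filled on the right at both 12 and 24 hours against time 0.

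Among the receptors, Tlr4 had 39.7, 36.8 and 36.6 CPM at time 0, 38.2, 38.3 and 37.0 at 12 hours and 17.1, 18.5 and 18.6 at 24 hours. The libraries of time 0 and 12 hours overlapped, and all 3 libraries of 24 hours lay below both. At 12 hours its log2 change from time 0 was 0.01 ± 0.05 (SE, edgeR, adjusted p = 0.931). At 24 hours it was -1.05 ± 0.06 against time 0 (edgeR, adjusted p = 5.25e-09) and -1.04 ± 0.05 against 12 hours (edgeR, adjusted p = 1.74e-09). In each of the 10 alternative analyses and with any library left out, Tlr4 was called in both 24-hour comparisons. Tlr4 lies at chr4:66827584-66930284 (GRCm38, plus strand), and no other gene overlaps its exons.

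Tlr3, whose product sits in endosomes, had 52.4, 47.2 and 48.95 CPM at time 0, 61.5, 65.4 and 56.8 at 12 hours and 38.1, 39.2 and 44.6 at 24 hours. The 3 times did not overlap, with 12 hours the highest and 24 hours the lowest. The log2 change was 0.31 ± 0.05 at 12 hours (edgeR, adjusted p = 0.000447) and -0.28 ± 0.06 at 24 hours (edgeR, adjusted p = 0.00157), both short of 1.5-fold. Between 12 and 24 hours it was -0.57 ± 0.06 (edgeR, adjusted p = 3.26e-06), just under 1.5-fold, and Tlr3 was called there without 24-hour replicate 3 (-0.64) or 12-hour replicate 3 (-0.62), with total-count scaling (-0.79), with all 9 libraries in one fit (-0.59) and with a correction for length and GC content (-0.69). Of its exon bases 7.32% overlap an antisense gene, Gm45542, and the strand setting of the counting is not given in the sources used here.

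Il1r1, the signaling receptor of IL-1, had 9.16, 10.5 and 7.38 CPM at time 0, 10.2, 8.70 and 9.28 at 12 hours and 7.23, 6.42 and 6.46 at 24 hours. The libraries of 24 hours were all the lowest, although the lowest library of time 0 was close to them. The log2 change was 0.07 ± 0.11 at 12 hours (edgeR, adjusted p = 0.802), -0.42 ± 0.13 at 24 hours (edgeR, adjusted p = 0.00911) and -0.47 ± 0.10 between them (edgeR, adjusted p = 0.000693). None of these reached 1.5-fold. At 24 hours against time 0 the adjusted p went up to 0.0593 with 1 library left out, and with total-count scaling Il1r1 was called lower (-0.64).

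Tlr2 had 0, 3 and 0 counts at time 0, 14, 45 and 15 at 12 hours and 1, 6 and 3 at 24 hours. The 12-hour libraries were all above the others, and replicate 2 was the highest at each time. Summed over 3 libraries and scaled, the 12-hour count of 74 was 27.1 times the time 0 count of 3, with a 95% exact interval of 8.91 to 134 that covers counting error only. The fitted log2 change was 4.59 ± 0.83 (edgeR, adjusted p = 0.00116), and it ranged from 3.85 without 12-hour replicate 2 to 7.70 without time 0 replicate 2, which leaves time 0 with no count, so that this value is not a bound. From 12 to 24 hours Tlr2 fell by 2.83 ± 0.67 on the log2 scale (edgeR, adjusted p = 0.00191), with changes of -2.09 without 12-hour replicate 2 and -3.48 without 24-hour replicate 2. The summed 24-hour count of 10 was 3.64 times that of time 0, with an interval of 0.938 to 20.6 that includes no change. Since Tlr2 passed the filter on low counts only through the 12-hour libraries where it is high, both of these edgeR tests carry no weight. At its highest, Tlr2 stayed under 1 CPM.

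Of the TLR4 co-receptors, Cd14 had 8.93, 8.51 and 8.43 CPM at time 0, 19.3, 21.6 and 17.6 at 12 hours and 16.9, 23.1 and 19.8 at 24 hours. All 6 later libraries were above time 0, and the 12- and 24-hour libraries overlapped. Its log2 change was 1.18 ± 0.08 at 12 hours (edgeR, adjusted p = 2.46e-08) and 1.22 ± 0.11 at 24 hours (edgeR, adjusted p = 2.42e-07), and 0.05 ± 0.10 between them (edgeR, adjusted p = 0.647). Cd14 was called at 12 and 24 hours in each of the 10 alternatives and with any library left out, with values of 0.99 to 1.32. CD14 is also known as a surface marker of macrophages. Where Cd14 had 397 to 1114 counts, the leukocyte and macrophage genes in the table had 12 to 37 (Cd68) or 0 to 5 (Itgam, Csf1r, Lyz2 and Fcer1g), and 3 of the 8 on that list, Ptprc, Adgre1 and Tyrobp, were not analysed here. Cd68 was at 0.249 to 0.794 CPM in the time 0 libraries, 0.284 to 0.646 in those of 12 hours and 0.586 to 0.663 in those of 24 hours.

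Ly96, which encodes the endotoxin-binding partner of TLR4, had 1.54, 2.57 and 2.50 CPM at time 0, 2.45, 2.24 and 2.17 at 12 hours and 2.54, 3.02 and 2.51 at 24 hours. Replicate 1 of time 0 was the lowest of the 9 libraries, and time 0 overlapped with both later times. The log2 change was 0.06 ± 0.19 at 12 hours (edgeR, adjusted p = 0.905), 0.29 ± 0.20 at 24 hours (edgeR, adjusted p = 0.202) and 0.26 ± 0.15 between them (edgeR, adjusted p = 0.143). At 74 to 146 counts per library, Ly96 had fewer counts than Tlr4 or Cd14 and larger errors.

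The ratio of a pair of genes within a library does not depend on the scaling of libraries, so it shows how the parts of the endotoxin receptor moved against each other. Per kb of exon, the ratio of Cd14 to Tlr4 lay between 0.721 and 0.743 at time 0, between 1.52 and 1.81 at 12 hours and between 3.17 and 4.002 at 24 hours. That of Ly96 to Tlr4 lay between 0.211 and 0.381 at time 0, between 0.318 and 0.349 at 12 hours and between 0.736 and 0.890 at 24 hours. The ratio of Tlr4 to Tlr3 went from between 0.701 and 0.730 at time 0 to between 0.548 and 0.611 after 12 hours and between 0.390 and 0.442 after 24. The ratio of Cd14 to Tlr4 thus had no overlap among the 3 times and passed 1 between time 0 and 12 hours, and that of Ly96 to Tlr4 differed at 24 hours only. In each of these cases without overlap the exact two-sided permutation p was 0.1, the smallest that 3 libraries against 3 allow. The ratio is a level of RNA, and the receptor proteins were not measured in these data.

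**Figure D4:**
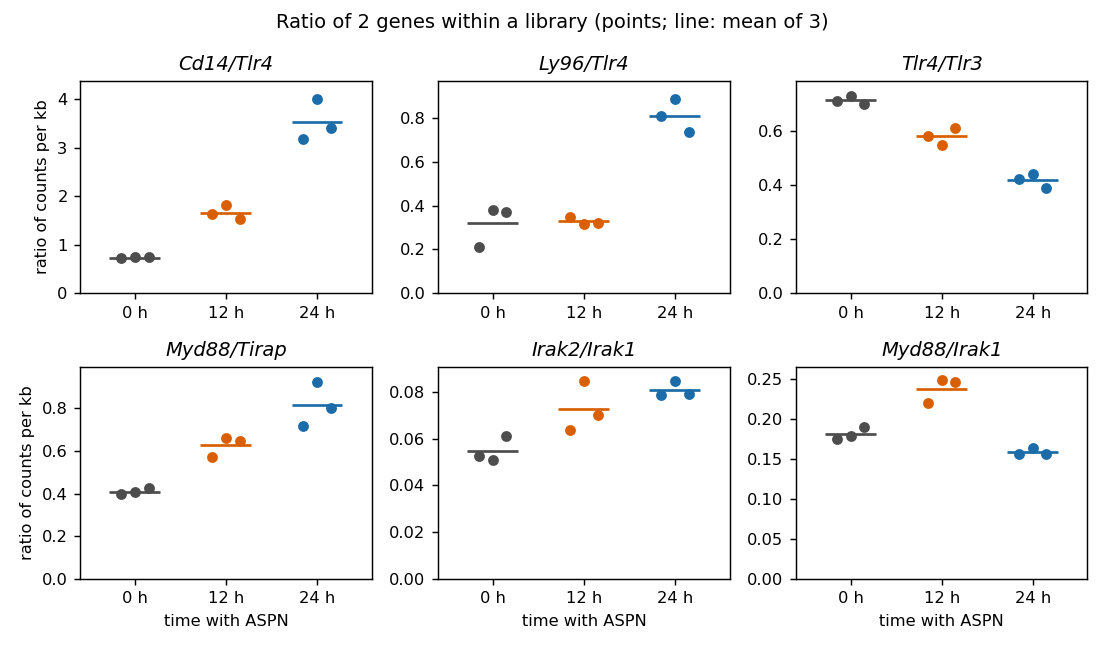
Ratio of counts per kb of exon of a pair of genes within each library (y axes, linear and starting at 0) at 0, 12 and 24 hours with ASPN (x axes). Points are the 3 libraries of a time and lines their mean. Cd14/Tlr4 goes from a mean of 0.734 at time 0 to 3.53 at 24 hours, and Myd88/Tirap from 0.409 to 0.813.

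Myd88, the adaptor shared by TLR2, TLR4 and the IL-1 receptor, had 15.6, 15.9 and 17.0 CPM at time 0, 19.0, 21.4 and 21.1 at 12 hours and 13.0, 13.9 and 12.6 at 24 hours. As for Tlr3, the 12-hour libraries were the highest and the 24-hour libraries the lowest, with no overlap among the times. The log2 change was 0.34 ± 0.07 at 12 hours (edgeR, adjusted p = 0.00184) and -0.29 ± 0.08 at 24 hours (edgeR, adjusted p = 0.00405), both under 1.5-fold. Between 12 and 24 hours Myd88 fell by 0.61 ± 0.07 on the log2 scale (edgeR, adjusted p = 3.66e-06), close to the 1.5-fold limit, and without 24-hour replicate 3 it was not called (-0.58). Of its exon bases 11.3% overlap the neighboring gene Acaa1a on the other strand.

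Tirap, the bridging adaptor that brings MYD88 to TLR2 and TLR4, went the other way at 12 hours, with a log2 change of -0.27 ± 0.03 (edgeR, adjusted p = 3.22e-05), and then fell by 1.27 ± 0.06 at 24 hours against time 0 (edgeR, adjusted p = 1.29e-09). Within a library the ratio of Myd88 to Tirap per kb lay between 0.397 and 0.424 at time 0, between 0.574 and 0.660 at 12 hours and between 0.716 and 0.922 at 24 hours, with no overlap among the times (exact two-sided permutation p = 0.1 for each pair of times). Ticam1, the adaptor of TLR3, was at 20.03 to 22.9 CPM per kb on average at the 3 times and was not called.

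Of the kinases, Irak1 had 163, 163 and 163 CPM at time 0, 158, 157 and 156 at 12 hours and 152, 156 and 148 at 24 hours. The libraries of each time lay below those of the time before, by a small margin. The log2 change was -0.05 ± 0.03 at 12 hours (edgeR, adjusted p = 0.399), -0.10 ± 0.04 at 24 hours (edgeR, adjusted p = 0.0412) and -0.03 ± 0.04 between them (edgeR, adjusted p = 0.520). The sign at 24 hours depended on the processing, since the correction for length and GC content gave 0.05 against time 0 and 0.12 against 12 hours.

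Irak2, which sustains the signal after IRAK1, had 8.06, 7.72 and 9.33 CPM at time 0, 9.47, 12.5 and 10.2 at 12 hours and 11.2, 12.4 and 10.97 at 24 hours. Both later times lay above time 0 without overlap and overlapped with each other. The log2 change was 0.36 ± 0.11 at 12 hours (edgeR, adjusted p = 0.0392), 0.47 ± 0.10 at 24 hours (edgeR, adjusted p = 0.000781) and 0.13 ± 0.10 between them (edgeR, adjusted p = 0.274). None reached 1.5-fold, and at 12 hours the adjusted p went up to 0.264 with 1 library left out. Of its exon bases 4.44% overlap another gene. Per kb, Irak2 was 0.0508 to 0.0610 of Irak1 at time 0 and 0.0789 to 0.0849 at 24 hours (exact two-sided permutation p = 0.1). Irak3, the inactive kinase that restrains the pathway in macrophages, had 1 count in 12-hour replicate 3 and none in the other 8 libraries.

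Of 49 further genes of the pathway, listed by function, 41 were in the table and 29 were tested. At 12 hours 2 rose and none fell, at 24 hours 6 rose and 3 fell against time 0, and between 12 and 24 hours 2 rose and 4 fell. With total-count scaling 4 were higher and 4 lower at 24 hours against time 0, and 2 higher and 6 lower between 12 and 24 hours. The shares called are 6.90%, 31.0% and 20.7% of the tested genes of the lists, beside 1.6%, 28.8% and 25.7% of all tested genes. Il18rap entered both comparisons with time 0 only through its later libraries, where it is high, so its place in these counts carries no weight, and without it 1 gene rose at 12 hours and 5 at 24 hours. The 1 gene at 12 hours, Il1rl1, also passed the filter there only through its 12-hour libraries, so its place in that count carries no weight either. The median log2 change of the 29 was 0.03, 0.13 and 0.12 in the 3 comparisons.

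Among the other Toll-like receptors, Tlr6, which pairs with TLR2, had 191, 192 and 216 counts at time 0, 181, 221 and 207 at 12 hours and 26, 96 and 65 at 24 hours. It fell by 1.56 ± 0.26 on the log2 scale at 24 hours against time 0 (edgeR, adjusted p = 0.000118) and by 1.70 ± 0.26 against 12 hours (edgeR, adjusted p = 4.75e-05), so that Tlr6 was low at 24 hours as Tlr4 was. Tlr5, the flagellin receptor, had 52 to 124 counts and was not called, and the endosomal receptors Tlr7 and Tlr13 had 0 to 7. Tlr1, Tlr8, Tlr9, Tlr11 and Tlr12 were not analysed here. Of the accessory proteins, Lbp, the serum protein that brings endotoxin to CD14, was at 29.2 CPM per kb at time 0 and 44.4 at 24 hours, and rose by 0.61 ± 0.04 on the log2 scale (edgeR, adjusted p = 3.24e-08), though by less than 1.5-fold (0.39) with total-count scaling. Unc93b1, the chaperone of the endosomal Toll-like receptors, had 38 to 47 counts at time 0 and 67 to 78 at 24 hours and rose by 0.85 ± 0.22 (edgeR, adjusted p = 0.00337). The chaperones Cnpy3 (1144 to 2236 counts) and Hsp90b1 (59064 to 75704 counts), which help Toll-like receptors to fold, were not called, and Cd36, Cd180 and Ly86 had 0 to 6 counts per library.

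Among the IL-1 family receptors, Il1rl1, which encodes the IL-33 receptor ST2, had 10, 11 and 28 counts at time 0, 42, 47 and 41 at 12 hours and 106, 149 and 117 at 24 hours. The 3 times did not overlap, and the log2 change was 1.55 ± 0.33 at 12 hours (edgeR, adjusted p = 0.00407) and 3.05 ± 0.30 at 24 hours (edgeR, adjusted p = 7.03e-07). Il1rl1 entered the 12-hour test only through its 12-hour libraries, as time 0 replicate 1 fell just short of the filter, so that test carries no weight. With the filter of at least 10 counts in every library, which its time 0 libraries pass, the 12-hour value was also 1.55. Il18rap, the accessory chain of the IL-18 receptor, had 5, 6 and 7 counts in the time 0 libraries, from 21 to 23 after 12 hours and from 28 to 46 after 24, and its log2 change was 1.99 ± 0.40 and 2.65 ± 0.39 (edgeR, adjusted p = 0.0029 and 4.19e-05), in tests that carry no weight because it entered them through the later libraries only. Il18r1, the chain of that receptor that binds IL-18, had at most 2 counts per library. Il1rap, the accessory chain that IL1R1 and ST2 share, had 203 to 352 counts and was not called, nor was the inhibitory receptor Sigirr with 9 to 37 counts, and the decoy receptor Il1r2 had 0 to 3 counts. Of the ligands, Il33 had 250 to 375 counts and was not called, Il1a had 0 to 3 and the antagonist Il1rn 0 to 10. Il18 had 27 to 34 counts at time 0 and 32 to 63 at 24 hours, which overlap, and was called higher at 24 hours (0.77 ± 0.31, edgeR, adjusted p = 0.0396), a call that was lost without 24-hour replicate 1 (0.73) or 2 (0.54) or without time 0 replicate 1 (0.74) or 3 (0.68). Il1b, Il36g and Il1rl2 were not analysed here.

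Below the adaptors, Irak4, the kinase that MYD88 recruits first, fell by 0.67 ± 0.07 on the log2 scale at 24 hours against time 0 (edgeR, adjusted p = 2.38e-06). Traf3, a ubiquitin ligase of the interferon branch, had a log2 change of 0.52 ± 0.04 at 12 hours (edgeR, adjusted p = 1.86e-07), under 1.5-fold, and fell by 0.74 ± 0.05 between 12 and 24 hours (edgeR, adjusted p = 1.5e-08), a change of -0.45 with the length and GC correction. Peli3, a ubiquitin ligase that acts on IRAK kinases, fell by 0.97 ± 0.21 between 12 and 24 hours (edgeR, adjusted p = 0.000945). The other 9 of the 12 kinases and ubiquitin ligases on the list were not called in any comparison. Among these, the values farthest from 0 were those of Tab3 (0.58 ± 0.06, just under 1.5-fold), Ube2v1 (0.53 ± 0.38, on 14 to 34 counts) and Ube2n (0.46 ± 0.05), all between 12 and 24 hours. Traf6 had 1200 to 1637 counts. Of the interferon regulatory factors, Irf7 rose by 0.83 ± 0.17 at 24 hours against time 0 (edgeR, adjusted p = 0.000652), Irf3 was not called and Irf5 had 1 to 16 counts. Of the adaptors, Ticam2, which links TLR4 to TRIF, had 0 to 4 counts and Sarm1 0 to 17, and Tollip, an inhibitor of the pathway, had 2727 to 3427 and was not called.

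The genes whose log2 CPM over the 9 libraries was most like that of the called genes were taken from 10356 genes (10357 for Tlr2) with a mean of at least 50 counts, as a description of libraries that share 3 times. For Tlr4 they were Gnaq, Igf1r and Notch2 (Pearson's r = 0.999 for each). For Cd14 they were Nfkb2 (r = 0.993), Lix1l (0.991) and Mvp (0.991). For Myd88 they were Ifi47 (r = 0.989), Gopc (0.985) and Zadh2 (0.977), and for Tlr2 Bid (r = 0.971), Parp10 (0.961) and Uaca (0.951).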

How the data were processed

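RNA-Seq gene counts of 9 MyC-CaP libraries were used. The authors aligned paired-end reads of TruSeq mRNA libraries to GRCm38 with STAR and ran featureCounts per gene. The deposited table holds the raw counts of 15384 genes, which the authors had not normalized. Positions and exon lengths were taken from GENCODE M21, which matched 15374 of them by identifier. The 10 genes and the lists of further genes were chosen with earlier results of these data known.

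Each comparison used its 6 libraries, with filterByExpr, TMM factors and the quasi-likelihood test of edgeR 4.0.16 in R 4.3.3, without a block, and Benjamini-Hochberg adjustment over all tested genes. CPM values were TMM scaled over the 9 libraries. The calculations were tested on simulated data. Libraries of the same time differed beyond sampling noise in every pair (chi-square divided by its degrees of freedom, 3.41 to 17.5). Replicate numbers come from the labels, and same-numbered libraries did not deviate together (correlation of -0.10 to 0.06). All 10 genes are named. Genes of the other lists are named where they were called or where 5 or fewer of a list shared a state (otherwise the 3 with the largest change). Alternatives were DESeq2 1.42.0, RLE, upper-quartile and total-count scaling, a minimum of 10 counts in every library or no count filter, the replicate block, 1 fit over all 9 libraries, a loess correction for length and GC content (span 0.3), the adjusted p alone, and leaving out each library.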

Additional observations from a re-analysis of the deposited data

How the results depend on the processing

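Of the values of the 10 genes under the alternatives, 395 kept their side of the threshold and, where called, their direction, 18 passed it only under the alternative and 1 (Myd88 between 12 and 24 hours, without 24-hour replicate 3) no longer passed it. The 18 include values that passed by the adjusted p alone, where the main fit is kept and the limit of 1.5-fold is dropped. No called value changed its direction. Of the 10 genes, 2 were called at 12 hours, 2 at 24 hours and 3 between 12 and 24 hours. With at least 10 counts in every library, the count at 12 hours was 1 (Cd14) for the 10 genes and 1 (Il1rl1) for the other genes of the pathway, since this filter removes Tlr2 and Il18rap. With the adjusted p alone, the counts for the 10 genes were 5 at 12 hours, 7 at 24 hours and 5 between 12 and 24 hours, and for the other genes 7, 20 and 19. With total-count scaling, 5 of the 10 genes were lower at 24 than at 12 hours (Il1r1 and Tlr3 besides Myd88, Tlr2 and Tlr4), and Irak2 was called at 24 hours with the length and GC correction (0.59). With 1 library left out in turn, the counts were 2 to 2, 2 to 2 and 3 to 4 for the 10 genes and 2 to 3, 8 to 9 and 6 to 8 for the other genes. The replicate numbers do not pair the libraries. With the replicate block, 0 of 26 calls for the 10 genes changed, the largest move of a log2 fold change was 0.0236, and the counts for the 10 genes were 2, 2 and 3. Among the other genes Il18 at 24 hours was not called with the block (0.74), DESeq2 (0.78), total-count scaling (0.55) or the length and GC correction (0.67). Tlr2 and Ly96 are limited by their low counts.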

Other observations

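Sensors of microbial products outside the Toll-like family were read from a list of 8 genes, of which 7 were in the table and 3 were tested. Casp4, which encodes the mouse caspase-11 that senses endotoxin in the cytosol, had 4, 7 and 1 counts at time 0, 18, 49 and 33 at 12 hours and 30, 38 and 32 at 24 hours. All later libraries were above time 0, and the log2 change was 3.15 ± 0.54 at 12 hours and 3.14 ± 0.49 at 24 hours (edgeR, adjusted p = 0.000664 and 6.53e-05), although Casp4 entered both tests only through the later libraries, where it is high, so that these tests carry no weight, and it was under 1 CPM on average at each time. Without time 0 replicate 2 its log2 change was 3.85 at both times, and without time 0 replicate 3 it was 2.64 at 12 hours and 2.65 at 24 hours. Ddx58, which encodes the RNA sensor RIG-I, rose by 0.62 ± 0.06 at 12 hours (edgeR, adjusted p = 7.73e-07), and its log2 change at 24 hours was 0.16 ± 0.07 (edgeR, adjusted p = 0.0625). Nod1 was not called, and Nod2, Casp1, Nlrp3 and Pycard had too few counts to be tested. Ifih1 was not analysed here.

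Of 9 matrix and danger molecules known to act on these receptors, 6 were in the table. Fn1, which encodes fibronectin, had 256638 to 292433 counts at time 0 and 343098 to 417447 at 24 hours and rose by 0.60 ± 0.05 on the log2 scale (edgeR, adjusted p = 1.33e-07), just past 1.5-fold, and short of it without time 0 replicate 3 (0.58) or with total-count scaling (0.38). Dcn, which encodes decorin, was called higher at 24 hours (1.20 ± 0.49, edgeR, adjusted p = 0.0437) on 7 to 11 counts at time 0 and 9 to 29 at 24 hours, which overlap, and the call held in 1 of 6 analyses with a library left out (log2 changes of 0.82 to 1.56). Dcn passed the filter on low counts only with the help of 24-hour libraries where it is high, so this test carries no weight. Bgn, which encodes biglycan, had 0 to 2 counts per library. Of the tested genes of this list, none of 3 was called at 12 hours and none of 4 between 12 and 24 hours, where 1.6% and 25.7% of all tested genes were. Vcan (1347 to 2073 counts) and Hmgb1 (7929 to 12364 counts) were tested in each comparison and not called, and S100a8 had 0 to 8 counts. Lum, Tnc and S100a9 were not analysed here.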
